A study of Rattus norvegicus with 48 samples.

Results

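TBK1 and its close relative IKKε (gene Ikbke) are the kinases through which the sensors of foreign nucleic acid and of endotoxin switch on type I interferon. STING (Sting1, formerly Tmem173), MAVS and TRIF (Ticam1) are the adaptors that gather the kinases below sensors of DNA, of RNA and of endotoxin, TRAF3 is the ubiquitin ligase that links the adaptors to them, TANK and NAP1 (Azi2) are scaffolds that hold them, and IRF3 is the transcription factor they phosphorylate. TBK1 is regulated mainly through its own phosphorylation, while Ikbke is also known as a gene induced in inflammation. Amlexanox, an anti-inflammatory small molecule, inhibits both kinases. In the brain the pathway is best known from microglia and astrocytes. The transcripts of these 9 genes were followed through all 16 groups of a rat culture series, and 8 of them had a row among the 30211 symbols of the deposited table. Sting1 stands there under its newer name, and Ticam1 was not analysed here.

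Mixed cortical cultures from Sprague-Dawley rat fetuses of 18 days were used at 21 days in vitro, and 3 RNA-seq libraries were made per group, 48 in all. Cultures were left untreated (Control) or received cocaine (25 µM, 24 h), the HIV-1 protein Tat (6 ng/mL, 48 h) or both (Tat-Cocaine). Amlexanox (25 µM), 4-octyl itaconate (4OI, 250 µM), Tazemetostat (3 µM) and Senicapoc (1 µM) were each given for 48 h by itself, together with Tat, and together with both Tat and cocaine, so that every compound was seen in 3 backgrounds (no Tat, Tat, and Tat with cocaine). Each compound was given at 1 dose and for 1 time, and a vehicle for the untreated cultures is not given in the sources used here.

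The labels call the cells neurons, but markers of glia were detected beside those of neurons. Astrocyte markers summed to 5137 to 12140 CPM (counts per library scaled to a common depth by the authors). Neuron markers summed to 670 to 2887 CPM and microglia markers to 322 to 3484 CPM. The Cocaine replicate 3 library stood apart with 21909 CPM of oligodendrocyte lineage markers, against a median of 791 over the 48 libraries. In bulk RNA, more cells of a type and more RNA per cell cannot be told apart. Libraries held 17515192 to 29056658 reads on genes, so that 1 CPM stood for 17.2 to 29.9 reads. The lowest value of Ikbke rested on 57 reads and that of Sting1 on 41, while the lowest values of the other 6 rested on 360 to 986. The reads behind Irf3 came out whole in 23 of 48 libraries and those behind Azi2 in 32, against at least 46 for the others, so that more of the reads behind these 2 genes entered as fractions, for a reason the sources used here do not give.

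RefSeq (rat build GRCr8) holds promoter windows, from 250 bases before to 50 after the start, for 7 of the 8 genes. The 4 windows below are shown because Tank and Sting1 rose with Tat, as described further on, while Tbk1 moved little. Windows were searched on both strands for GAAA, any 2 bases and GAAA (core of the interferon-stimulated response element), GGG, any 3 bases and TTCC (NF-κB), TTCNNNGAA (STAT) and TGANTCA (AP-1), and matches are in capitals. The last 2 motifs read the same on both strands, and no matches overlapped.

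Tank, first entry, chr3:66522587-66522886, plus strand: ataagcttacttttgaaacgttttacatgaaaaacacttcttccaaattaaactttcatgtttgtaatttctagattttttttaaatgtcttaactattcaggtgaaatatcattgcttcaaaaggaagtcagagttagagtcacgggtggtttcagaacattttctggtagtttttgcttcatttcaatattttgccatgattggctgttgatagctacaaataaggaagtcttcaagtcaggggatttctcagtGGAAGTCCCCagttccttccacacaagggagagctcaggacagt

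Tank, second entry, chr3:66536993-66537292, plus strand: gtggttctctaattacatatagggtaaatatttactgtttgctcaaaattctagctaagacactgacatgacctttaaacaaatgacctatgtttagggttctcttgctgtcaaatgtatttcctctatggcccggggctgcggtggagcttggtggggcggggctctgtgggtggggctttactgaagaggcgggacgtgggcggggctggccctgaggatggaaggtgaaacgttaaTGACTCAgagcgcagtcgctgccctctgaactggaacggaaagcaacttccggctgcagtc

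Sting1, chr18:27612399-27612698, minus strand: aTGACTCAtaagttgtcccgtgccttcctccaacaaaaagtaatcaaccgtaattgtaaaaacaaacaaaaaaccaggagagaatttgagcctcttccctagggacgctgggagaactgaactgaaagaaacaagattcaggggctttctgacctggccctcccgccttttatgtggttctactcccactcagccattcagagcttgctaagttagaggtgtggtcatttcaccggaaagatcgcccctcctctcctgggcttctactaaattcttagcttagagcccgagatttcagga

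Tbk1, chr7:58996308-58996607, minus strand: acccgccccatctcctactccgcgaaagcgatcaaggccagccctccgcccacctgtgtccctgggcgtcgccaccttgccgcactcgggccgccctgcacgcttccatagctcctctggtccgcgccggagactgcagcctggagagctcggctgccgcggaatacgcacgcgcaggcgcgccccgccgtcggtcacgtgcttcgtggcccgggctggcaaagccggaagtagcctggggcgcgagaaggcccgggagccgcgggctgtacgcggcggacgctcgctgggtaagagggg

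The first Tank window held an NF-κB match on the reverse strand, beginning 7 bases into the transcript, and the second an AP-1 match at -11. Sting1 had an AP-1 match at -249, at the far edge of its window. Tbk1 and Mavs had no match to any of the 4 motifs. NF-κB matches were also present in the windows of Irf3 (-29), Traf3 (-10) and Azi2 (+6), which did not pass the test with Tat. Of all 33469 windows of this length, 5.37% held the NF-κB motif, 7.33% the AP-1 motif, 8.87% the STAT motif and 3.92% the interferon motif. The last 2 were in none of the members' windows.

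Tat raised 3 of the 8 transcripts, namely the inducible kinase Ikbke, the scaffold Tank and the adaptor Sting1, while the other 5 did not pass the test. Against this count, 21.3% of the 15890 genes tested changed in the same comparison (limma, FDR under 0.05), and the median log2 fold change was 0.16 over the 8 members and 0.01 over all genes. All fold changes are on the scale of log2(CPM + 0.5), which understates the change of genes at a few CPM. Replicates are libraries that the labels number, and nothing says that they came from separate cultures or litters, so the p-values measure the spread between libraries, which may be technical.

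**Figure D1:**
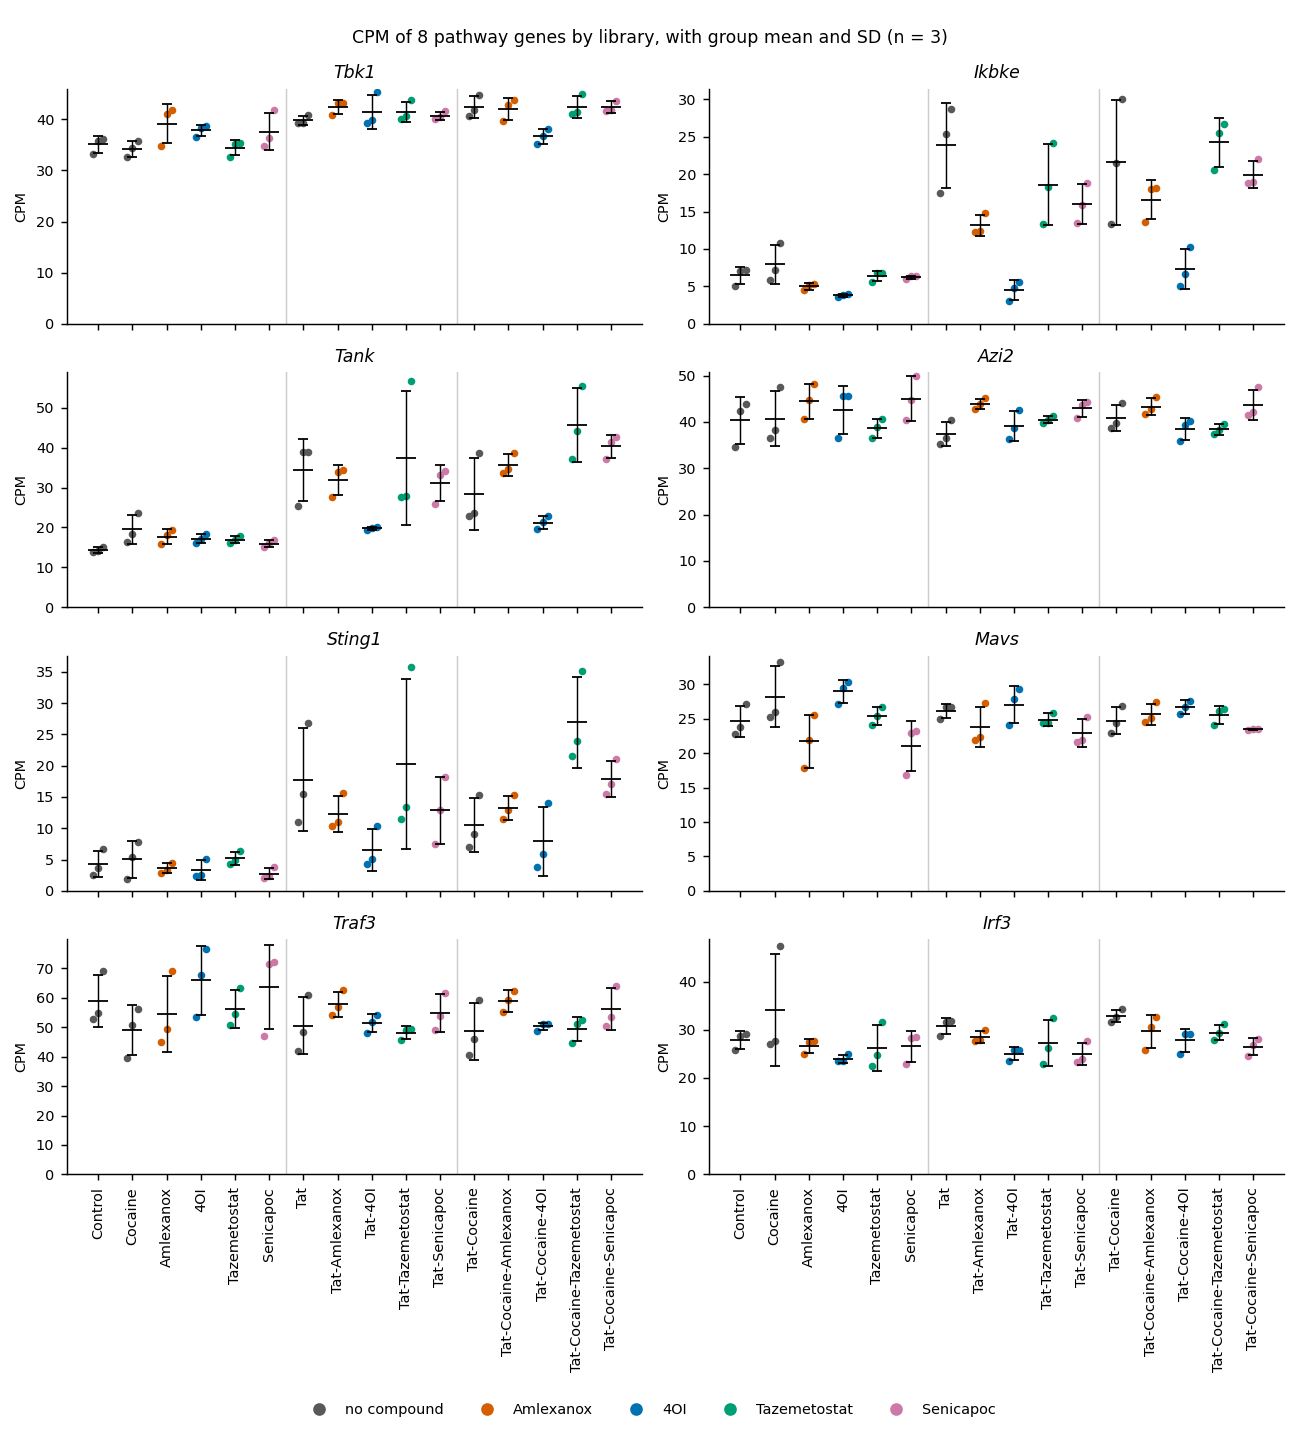
CPM of the 8 transcripts (linear axis from 0) in each library of the 16 groups, with points coloured by compound and bars for the group mean ± SD (n = 3). Vertical lines divide cultures without Tat, with Tat and with Tat and cocaine. Ikbke lies between 4.50 and 7.17 CPM in the Control and Amlexanox libraries and between 12.3 and 30.03 in the Tat and Tat-Cocaine libraries with or without amlexanox, while Tbk1 stays between 32.5 and 45.3 in all 48.

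Ikbke, which encodes IKKε, was at 5.10, 7.11 and 7.17 CPM in the 3 Control libraries and at 28.6, 25.3 and 17.5 CPM in the Tat libraries. The lowest Tat library thus lay above the highest Control library. The log2 fold change was 1.79 (SE 0.24, FDR 1.4e-06 by limma), or 3.46-fold. With Tat and cocaine the libraries read 13.3, 21.4 and 30.03 CPM, again all above Control, and the log2 fold change was 1.61 (SE 0.24, FDR 1.4e-05). Tat given on top of amlexanox raised Ikbke as well, from 5.30, 4.50 and 5.22 CPM in the Amlexanox libraries to 12.3, 14.8 and 12.4 CPM in the Tat-Amlexanox libraries, a log2 fold change of 1.31 (SE 0.24, FDR 2.2e-04).

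Tbk1, the kinase present in most cell types, and Azi2 varied least between groups. The group means of Tbk1 ran from 34.2 to 42.5 CPM, a ratio of 1.24, and libraries of a group differed on average by 4.91% of their mean (coefficient of variation). It was at 33.2 to 36.2 CPM in Control, 39.2 to 40.8 in Tat and 40.6 to 44.9 in Tat-Cocaine libraries, with no overlap between Control and either group. The rise passed the test in Tat-Cocaine cultures (log2 fold change 0.27, SE 0.07, FDR 0.00622) and not in Tat cultures (0.18, SE 0.07, FDR 0.0585). Whether these 2 effects differ was not tested. In Tat-Cocaine cultures against Control, 14.9% of all genes changed, and 3 of the 8 members did, Tbk1 with Ikbke and Tank. The median log2 fold change there was 0.25 over the members and 0.01 over all genes.

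Among the scaffolds, Tank rose and Azi2 did not. Tank is also known as a restraint on inflammatory signalling. It was at 13.8, 14.2 and 15.2 CPM in Control, 38.9, 38.99 and 25.4 CPM in Tat and 23.5, 22.8 and 38.7 CPM in Tat-Cocaine libraries, so that no treated library overlapped Control. The log2 fold change was 1.20 with Tat (SE 0.19, FDR 2.2e-05), 0.91 with Tat and cocaine (SE 0.19, FDR 0.00116) and 0.83 with Tat on top of amlexanox (SE 0.19, FDR 0.00174). Azi2 stayed between 34.6 and 49.9 CPM in all libraries, and its log2 fold change with Tat was -0.10 (SE 0.10, FDR 0.453).

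Of the adaptors, Sting1 rose with Tat and Mavs did not. Sting1, the receptor of cyclic dinucleotides made by cGAS, was at 2.61, 6.67 and 3.59 CPM in Control and at 15.5, 26.9 and 11.02 CPM in Tat libraries, which did not overlap. The log2 fold change was 1.93 (SE 0.45, FDR 0.00185). With Tat and cocaine the values were 7.02, 9.13 and 15.3 CPM, also above every Control library, but the log2 fold change of 1.22 missed the threshold (SE 0.45, FDR 0.0613). It passed with the replicate number as a block shared by all 48 libraries, FDR 0.00176. Over all genes tested, same-numbered libraries of this pair of groups deviated together. Sting1 itself was lowest in replicate 1 of both, but highest in Control replicate 2 and in Tat-Cocaine replicate 3. With amlexanox present, Tat raised Sting1 from 2.92, 4.50 and 3.41 CPM to 10.96, 15.6 and 10.4 CPM (log2 fold change 1.63, SE 0.45, FDR 0.00573). Sting1 also had the widest scatter of the 8, with a mean coefficient of variation within groups of 39.2%. Part of this scatter went with the replicate number, since replicate 2 held the most Sting1 in every group but Tat-Cocaine.

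Mavs, Traf3 and Irf3 did not pass the test in any comparison of Tat, cocaine or both. Mavs, the mitochondrial adaptor of the RNA sensors, averaged 24.6 ± 2.29 CPM in Control and 26.1 ± 0.993 CPM in Tat cultures (SD, n = 3). Traf3 averaged 58.9 ± 8.96 and 50.5 ± 9.66 CPM in the same groups, a log2 fold change of -0.23 with a 95% interval from -0.56 to 0.11. Irf3 averaged 27.8 ± 1.86 and 30.7 ± 1.67 CPM, a log2 fold change of 0.14 with an interval from -0.14 to 0.42. In Tat-Cocaine cultures the 3 Irf3 libraries, 31.7, 32.6 and 34.3 CPM, all lay above the Control libraries at 25.7 to 29.1 CPM, with a log2 fold change of 0.24 (FDR 0.272).

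Cocaine alone changed 0 of the 8 members by limma, where 0.201% of all genes changed, and 1 member, Tank, had an unadjusted p under 0.05. Tank was at 16.5, 18.4 and 23.6 CPM in Cocaine libraries, above the Control libraries in each, with a log2 fold change of 0.41 (SE 0.19, FDR 0.374). Its highest value in these 3 libraries, and the highest Irf3 value of all 48 libraries (47.4 CPM), came from the Cocaine library with the oligodendrocyte lineage markers. Without that library the count of members remained 0, and the 32 genes behind the share of all genes became 0. Without Cocaine replicate 1 they became 1724.

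**Figure D2:**
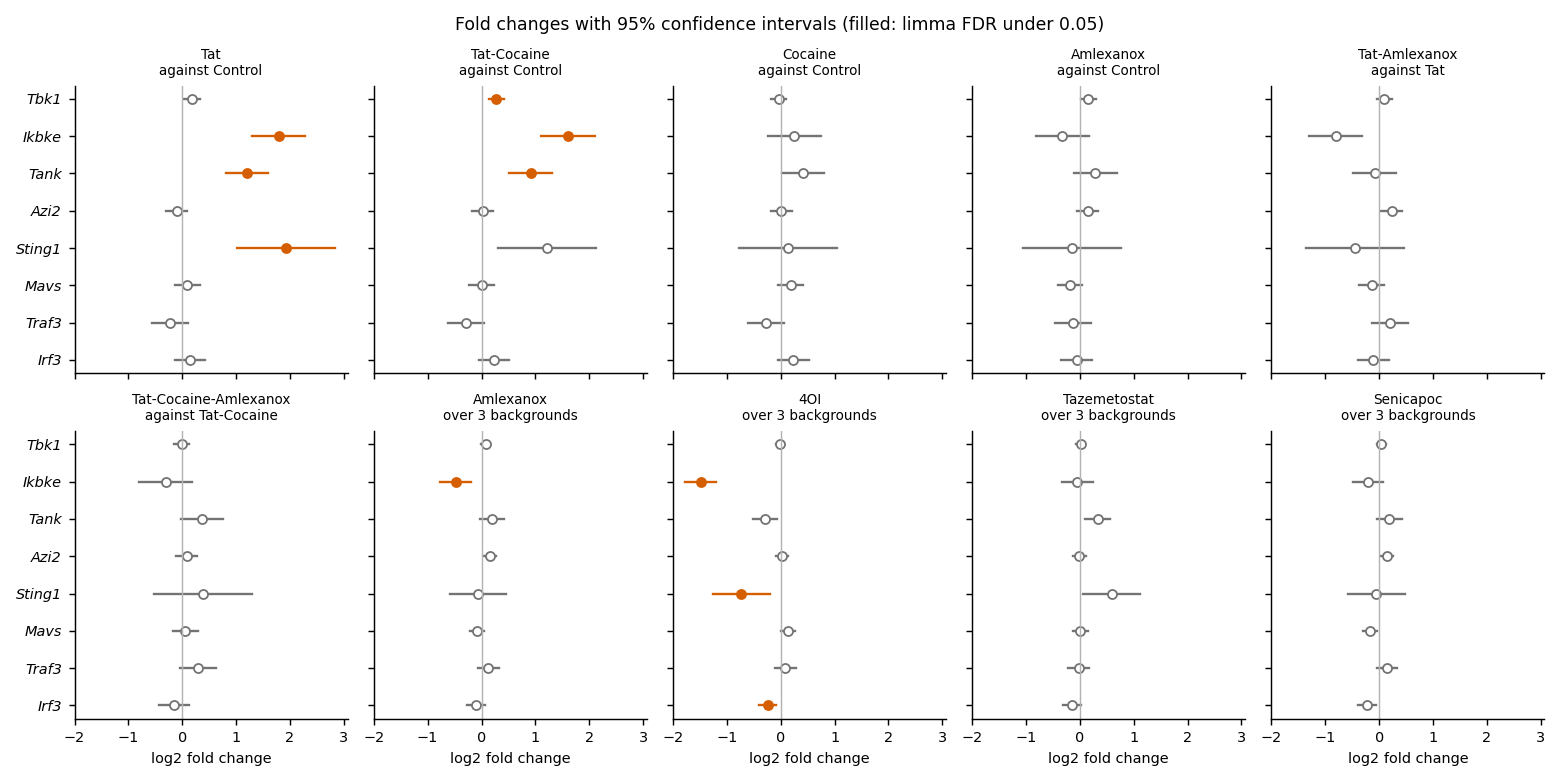
Log2 fold change (horizontal axis, log2 of CPM + 0.5) of the 8 transcripts in 10 comparisons, with 95% confidence intervals from limma. Filled points passed FDR under 0.05. Ikbke and Sting1 lie to the right under Tat and to the left under 4OI, and under amlexanox the point of Ikbke is left of 0 in each background.

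Amlexanox acts on the protein products of Tbk1 and Ikbke, and its groups were compared with those without it for the transcripts of the kinases and their partners. In cultures without Tat it changed 0 of the 8, while 11.4% of all genes changed. The members' median log2 fold change was -0.09, against 0.01 over all genes. Only Tbk1 had an unadjusted p under 0.05 there: it was at 36.2, 35.8 and 33.2 CPM in Control and 34.7, 41.003 and 41.7 CPM in Amlexanox libraries, and the groups overlapped (log2 fold change 0.15, SE 0.07, FDR 0.153). Without Amlexanox replicate 1 the same difference was 0.24 with an FDR of 0.0178. Tank was at 15.7, 18.0 and 19.4 CPM with amlexanox, just above every Control library, and its log2 fold change of 0.29 (SE 0.19, FDR 0.361) did not pass. Ikbke was at 5.30, 4.50 and 5.22 CPM, which overlapped Control at its lowest library, with a log2 fold change of -0.33 (SE 0.24, 95% interval -0.82 to 0.17).

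In Tat-treated cultures amlexanox again changed 0 of the 8 members by limma, with 0.837% of all genes changed, and Ikbke and Azi2 had an unadjusted p under 0.05. The median over the members was -0.10 and that over all genes -0.02. Ikbke, at 28.6, 25.3 and 17.5 CPM with Tat alone, was at 12.3, 14.8 and 12.4 CPM with Tat and amlexanox. The 2 groups did not overlap, and the Tat-Amlexanox libraries in turn lay above all Control libraries. The log2 fold change was -0.81 (SE 0.24, 95% interval -1.30 to -0.31, p 0.00215, FDR 0.106), a 1.75-fold lower level on the fitted scale. Over all genes tested, same-numbered libraries of these 2 groups deviated together. Ikbke itself was highest in replicate 1 of Tat but lowest in replicate 1 of Tat-Amlexanox. With the replicate number as a block shared by all 48 libraries, Ikbke passed, with an FDR of 0.0409. Without 1 library at a time the log2 fold change lay between -1.01 (without Tat replicate 3) and -0.66 (without Tat replicate 1), and the FDR between 0.0809 and 0.459.

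Azi2, the NAP1 scaffold, was at 40.3, 35.2 and 36.6 CPM with Tat and 45.1, 42.9 and 43.9 CPM with Tat and amlexanox. These groups did not overlap either, but the log2 fold change of 0.23 missed the threshold (SE 0.10, FDR 0.281). Tbk1 was at 39.3, 40.8 and 39.2 CPM with Tat and at 43.3, 43.3 and 40.9 CPM with both, a log2 fold change of 0.09 with a 95% interval from -0.05 to 0.23. Tank, which Tat had raised, stood at 33.8, 34.5 and 27.7 CPM with amlexanox, within the range of the Tat libraries. Sting1 also overlapped, with a log2 fold change of -0.44 and an interval from -1.35 to 0.47.

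With Tat and cocaine, amlexanox changed 0 of the 8 members, 0 had an unadjusted p under 0.05, and 0.925% of all genes changed, a share that rests on 147 genes and became 5 genes when Tat-Cocaine replicate 2 was left out and 1317 when replicate 3 of that group was. Ikbke was at 18.2, 18.0 and 13.6 CPM with amlexanox, inside the wide range of the Tat-Cocaine libraries from 13.3 to 30.03 CPM. Its log2 fold change was -0.31 (SE 0.24, FDR 0.505). The members' median was 0.07 against 0.02 over all genes.

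Averaged over the 3 backgrounds, Ikbke was the 1 member of 8 that amlexanox changed. It fell by 0.48 on the log2 scale (SE 0.14, 95% interval -0.77 to -0.20, FDR 0.0285), 1.40-fold, with a lower mean in each background. In this comparison 7.99% of all genes changed. The call is a narrow one, since it was lost in 7 of the 18 fits that left out 1 library and in the fit to the 6 groups concerned alone (FDR 0.0705). Leaving out Control replicate 2, Tat replicate 1 or 2, Tat-Cocaine replicate 2 or 3, Tat-Amlexanox replicate 1 or Tat-Cocaine-Amlexanox replicate 3 ended it, with FDRs up to 0.0718. Azi2 came next, 0.15 higher (SE 0.06, FDR 0.0827), and the members' median was 0.00.

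The effect of Tat on the 8 transcripts with amlexanox was set against that without it as an interaction. Of the 8 members 0 differed, 0 had an unadjusted p under 0.05, and 1.84% of all genes differed. That share, 292 genes, became 0 without Control replicate 3 or Amlexanox replicate 3 and 1603 without Amlexanox replicate 1. For Ikbke the Tat effect with amlexanox minus that without was -0.48 on the log2 scale, with a 95% interval from -1.18 to 0.22 (FDR 0.489). For Tank the difference was -0.37 (interval -0.93 to 0.19) and for Sting1 -0.29 (interval -1.58 to 0.99), and both intervals hold 0. Tat on top of amlexanox changed 3 of the 8 members, Ikbke, Tank and Sting1, all upward, and 39.6% of all genes.

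**Figure D3:**
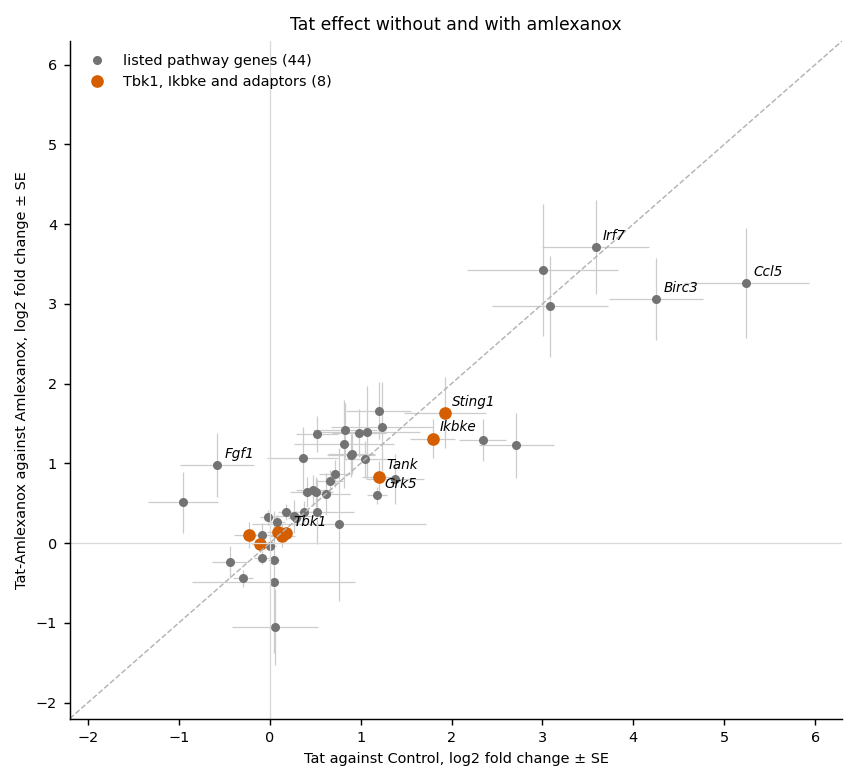
Log2 fold change ± SE of Tat against Control (horizontal) and of Tat-Amlexanox against Amlexanox (vertical) for the 8 members and 44 other pathway genes, with the line of equal effects dashed. Ikbke (1.79 and 1.31), Tank (1.20 and 0.83) and Sting1 (1.93 and 1.63) lie below the line, and Tbk1 (0.18 and 0.12) close to the origin. The vertical minus the horizontal value has a median of 0.13 over the 44 genes and of -0.05 over the 8 members.

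The other compounds were compared in the same way. 4OI, a cell-permeable ester of itaconate, changed 3 of the 8 members over the 3 backgrounds, all downward, where 22.8% of all genes changed. Ikbke fell by 1.49 (SE 0.14, FDR 4.7e-10), 2.80-fold: it was at 3.61, 3.97 and 3.79 CPM with 4OI alone, 3.05, 5.65 and 4.77 with Tat and 4OI, and 5.10, 10.2 and 6.67 with Tat, cocaine and 4OI. Tat-treated cultures with 4OI thus held less Ikbke than untreated ones on average (4.49 ± 1.32 against 6.46 ± 1.18 CPM, SD, n = 3), with overlapping libraries, a pair of groups that was not tested. Sting1 fell by 0.73 (SE 0.26, FDR 0.0373) and Irf3 by 0.25 (SE 0.08, FDR 0.0245). The Sting1 call was lost in 12 of 28 alternative fits, 9 of which left out 1 library (Control 2, Tat 2, Tat-Cocaine 3, replicates 1 and 3 of 4OI, of Tat-4OI and of Tat-Cocaine-4OI), with FDRs up to 0.108. Tank had a log2 fold change of -0.29, with an FDR of 0.0575. The Irf3 call was lost in 1, without Tat-Cocaine-4OI replicate 1 (FDR 0.0606).

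Tazemetostat, an inhibitor of the histone methyltransferase EZH2, changed 0 of the 8 over the 3 backgrounds (11.4% of all genes), with 2 members, Tank and Sting1, at an unadjusted p under 0.05. Tank was 0.33 higher (SE 0.11, FDR 0.0507), and its highest values of all, 56.7 and 55.4 CPM, were in the replicate 2 libraries of Tat-Tazemetostat and Tat-Cocaine-Tazemetostat. Sting1 was highest in the same libraries, at 35.8 and 35.2 CPM, and replicate 2 held the most Sting1 in every group but Tat-Cocaine. Senicapoc, a blocker of the potassium channel KCa3.1, changed 0 of the 8 (1.16% of all genes), with Irf3, Mavs and Azi2 at an unadjusted p under 0.05. Amlexanox against the mean of the other 3 compounds differed for 0 of the 8, with Azi2 at an unadjusted p under 0.05 (FDR 0.168), where 9.27% of all genes differed. For Ikbke that difference was 0.10 (interval -0.14 to 0.33).

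Ordered by group mean, Ikbke ran from 3.79 CPM in 4OI to 24.2 in Tat-Cocaine-Tazemetostat, 6.39-fold. The 8 lowest groups were the 6 without Tat and the 2 with Tat and 4OI. Between neighbours in the order, the libraries were separate in 2 of 15 steps, from Amlexanox (5.01 ± 0.441 CPM) to Senicapoc (6.23 ± 0.206 CPM) and from Cocaine (7.93 ± 2.55) to Tat-Amlexanox (13.2 ± 1.40). Tat-Amlexanox was the lowest of the Tat groups without 4OI. Sting1 ran over a wider range, from 2.74 CPM in Senicapoc to 26.9 in Tat-Cocaine-Tazemetostat, but its neighbours overlapped in every step. The group means of Tank ran from 14.4 to 45.6 CPM, and those of Irf3, Mavs, Traf3, Azi2 and Tbk1 differed by at most 1.42-fold between the highest and the lowest group.

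Over the 16 group means, Ikbke followed Sting1 (Pearson 0.91) and Tank (0.91) more closely than Tbk1 (0.63), Irf3 (0.50) or the remaining members (-0.44 to -0.12). The groups share libraries, depth and the Tat treatment, so these are descriptions. Among 14209 genes with at least 1 CPM on average, the 5 most like Ikbke were RT1-T24-3 (0.978), C4b (0.976), Cflar (0.9751), Rarres2 (0.972) and Rcsd1 (0.971). RT1-T24-3 belongs to the rat major histocompatibility complex, C4b is a complement component and Cflar the caspase-8 regulator c-FLIP. The 5 most like Tbk1 were G3bp2 (0.911), which encodes a stress granule protein, AABR07004269.3 (0.906), Rab3gap1 (0.904), Gon4l (0.890) and AABR07026300.1 (0.885).

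Markers of microglia and of vascular and fibroblast cells moved with part of these results. Summed over 8 markers, Tat libraries held 1306 to 2312 CPM and Control libraries 947 to 1750, which overlap, and 2 of the 8 markers (Aif1 and Itgam, both of which also rise in activated microglia) rose with Tat, although the Aif1 call was lost in 8 of 16 alternative fits. In Tat-Cocaine libraries, where Ikbke and Tank also rose, the sum was 908 to 1573 CPM and 0 of the 8 markers passed. With amlexanox the sums were 884 to 1337 CPM without Tat, 1386 to 1800 with Tat and 1380 to 1759 with Tat and cocaine, and 0 of the 8 markers passed in any of the 3 backgrounds or over all of them. When Tat was given on top of amlexanox, where Ikbke, Tank and Sting1 rose, the microglia sums of the 2 groups did not overlap, and 3 of the 8 markers rose (Aif1 by 1.61, Tmem119 by 1.35 and Itgam by 1.24 on the log2 scale). With 4OI and Tat the sum was 499 to 1226 CPM, below every Tat library, and 5 of the 8 markers fell over the 3 backgrounds. The highest sums, 3484 and 3476 CPM, were in the 2 Tazemetostat libraries that held the most Sting1 and Tank. Both were replicate 2, which held the highest microglia sum in every group but Tat-Cocaine. None of the 8 markers was at 0 in any library. Their part in the changes of Ikbke, Sting1 and Tank was not tested.

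Of 5 vascular and fibroblast markers 4 had a row, 1 of which was at 0 in some library, and 3 were tested. The endothelial markers Pecam1 (no row) and Cldn5 (below the filter) were not, which left Pdgfrb, Dcn and Col1a1. Summed over the 4 with a row, Control libraries held 85.7 to 254 CPM, Tat libraries 156 to 344 and Tat-Cocaine libraries 218 to 329. Amlexanox libraries held 57.0 to 150 CPM, Tat-Amlexanox libraries 172 to 262 and Tat-4OI libraries 75.6 to 160. Over the 16 group means this sum followed Ikbke (Pearson 0.967), Sting1 (0.884) and Tank (0.882) more closely than the microglia sum did (0.755, 0.722 and 0.709), as a description over groups that share the Tat treatment. In Tat, Tat-Cocaine and the 3 amlexanox backgrounds 0 of the 3 passed. With Tat on top of amlexanox the pericyte receptor Pdgfrb rose (1.27) together with the collagen gene Col1a1 (1.61), while Dcn fell (-2.14), and over the 3 backgrounds 4OI lowered Pdgfrb (-0.70) and Col1a1 (-0.98). The part of these markers in the changes of the members was not tested either.

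**Figure D4:**
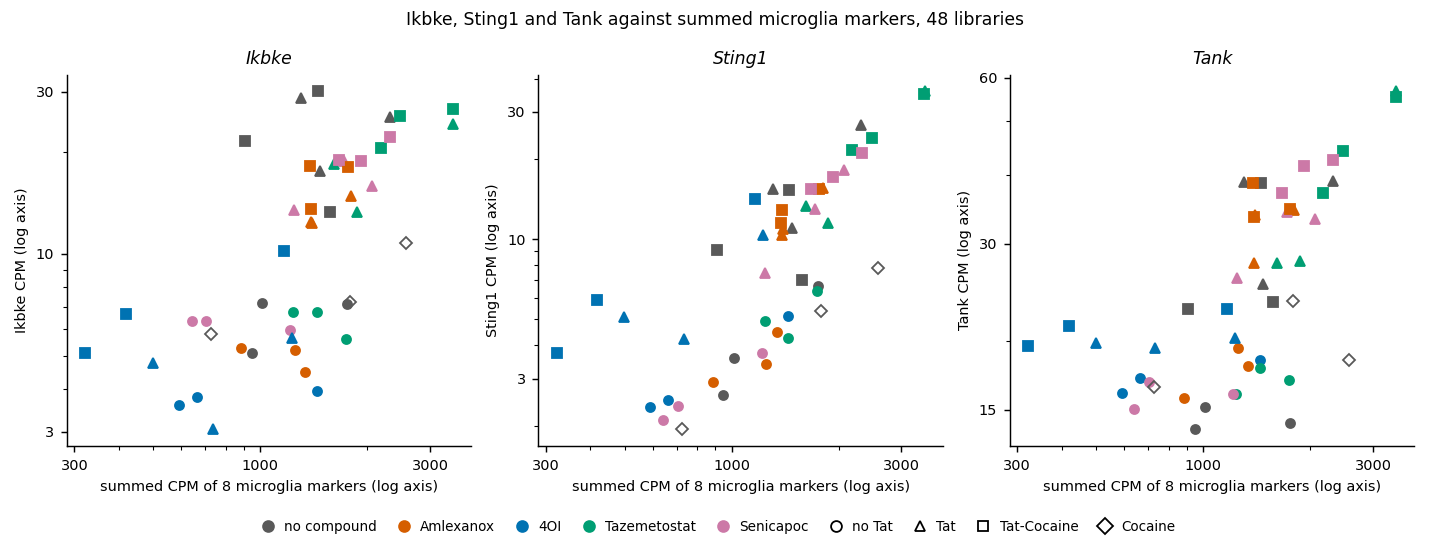
CPM of Ikbke, Sting1 and Tank (vertical, log axis) against the summed CPM of 8 microglia markers (horizontal, log axis) in 48 libraries, with colour for the compound and shape for the background. Libraries without Tat hold at most 10.8 CPM of Ikbke and those with Tat but no 4OI at least 12.3, over marker sums that overlap (591 to 2570 and 908 to 3484 CPM).

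Astrocyte markers moved as well. In Amlexanox cultures 3 of 6 fell against Control, namely the water channel Aqp4 (log2 fold change -0.78), Aldh1l1 (-0.96) and the gap junction gene Gja1 (-1.01), and the calls of all 3 were lost without Amlexanox replicate 3 (that of Gja1 also without Amlexanox replicate 2 or Control replicate 3). Over the 3 backgrounds amlexanox lowered 1 of the 6, Aldh1l1. That call was kept in 27 of 28 alternative fits and lost without Amlexanox replicate 3. The summed astrocyte markers of the 3 Amlexanox libraries were far apart, 11347, 7869 and 5137 CPM, against 8295 to 9188 in Control. With Tat, Gfap and Gja1 fell. When Tat was given on top of amlexanox, Aqp4 and Aldh1l1 rose (both by 0.95), and 5 of 6 neuron markers fell. Over the 3 backgrounds 4OI raised the glutamate transporter Slc1a2 (0.83) and Gfap (0.50). Whether these shifts bear on the members was not tested.

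The rest of the pathway was followed through 44 other genes in 7 lists. These lists were drawn up with earlier results of the same samples known, so their directions are no independent evidence. Tat changed 20 of the 44 (45.5%, beside 21.3% of all genes), 19 of them upward. The median log2 fold change of the 44 was 0.57. Of the 10 sensors of nucleic acid and endotoxin 5 rose, among them the DNA sensor Cgas (1.38), the endotoxin receptor Cd14 (3.08) and the RNA sensor Dhx58 (1.20). Of 11 kinase partners and modifiers 6 rose and 1, the adaptor Tbkbp1, fell (-0.29). The largest rises were those of Birc3 (4.25, FDR 1.6e-07), Tnfaip3 (2.71) and Birc2 (2.34), of which Birc2 and Birc3 are ubiquitin ligases and Tnfaip3, or A20, is a brake on NF-κB, and all 3 belong to NF-κB signalling. Birc3 went from 6.02 to 15.98 CPM in Control to 130 to 203 CPM in Tat libraries.

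Downstream of Irf3, 2 of 6 output genes tested rose with Tat, the chemokine Ccl5 (5.24, FDR 7.4e-07) and Ifit3 (3.00). Of 8 interferon regulatory factors 3 rose, Irf7 (3.59), Irf9 (1.052) and Irf2 (0.29). Of the canonical IKK complex, Ikbkg was the 1 of 3 to rise (0.51), and of 3 selective autophagy receptors Optn, which TBK1 phosphorylates (0.66). Those of Tbkbp1, Ikbkg and Irf2 were the least firm of these calls, lost in 7, 8 and 6 of 16 alternative fits, each without Tat replicate 1 or 2 or Control replicate 1 among others, and that of Dhx58 was lost without Tat replicate 2 or Control replicate 1. Tat on top of amlexanox raised 28 of the 44 and lowered 2, together 68.2%, beside 39.6% of all genes. With Tat and cocaine 10 of the 44 rose and 0 fell by limma (22.7%, beside 14.9% of all genes). Those that rose included Birc3 (3.47), Irf7 (3.38), Ccl5 (5.04) and Ifit3 (3.03). Control libraries were far apart in Ifit3, from 0.920 to 57.9 CPM, and its call under Tat was lost without Control replicate 1 or in the fit to the 2 groups alone.

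Cocaine alone changed 0 of the 44 by limma (3 at an unadjusted p under 0.05), beside 0.201% of all genes. Over the 3 backgrounds 4OI raised 3 and lowered 24 of the 44, together 61.4%, beside 22.8% of all genes. Tazemetostat raised 3, or 6.82%, beside 11.4% of all genes. Senicapoc changed 0 (7 at an unadjusted p under 0.05), beside 1.16% of all genes.

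Without Tat amlexanox changed 3 of the 44 genes, or 6.82% (5 at an unadjusted p under 0.05), 1 up and 2 down, beside the 11.4% of all genes given above. With Tat it changed 0 of the 44 by limma (8 at an unadjusted p under 0.05), and with Tat and cocaine 0 as well (8 at an unadjusted p under 0.05), where the shares of all genes were 0.837% and 0.925%. Ccl5, singled out here after its values were seen, was at 56.2 to 83.1 CPM in Tat and 16.3 to 25.4 CPM in Tat-Amlexanox libraries, which did not overlap, with a log2 fold change of -1.71 (SE 0.69, FDR 0.27). With cocaine added the value was -1.69 (FDR 0.198). Over the 3 backgrounds 2 of the 44 rose and 1 fell, beside 7.99% of all genes. Of the canonical IKK complex Chuk, which encodes IKKα, rose (0.19, SE 0.06, FDR 0.0283), from 30.4 to 32.5 CPM in Control to 31.4 to 33.98 in Amlexanox libraries, which overlap, and from 33.4 to 37.02 in Tat to 40.4 to 47.8 in Tat-Amlexanox libraries, which do not. Its call was lost without replicate 2 of Control, Tat or Tat-Cocaine or replicate 1 of Tat-Amlexanox or Tat-Cocaine-Amlexanox, with FDRs up to 0.0804. In cultures without Tat the RNA sensor Ddx58, or RIG-I, fell (-0.71, FDR 0.0389), from Control libraries that were themselves far apart at 18.2 to 51.0 CPM to 13.5 to 22.6 CPM, and the call was lost in 5 of 16 alternatives, among them those without Control replicate 2 or 3 or Amlexanox replicate 3.

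Of 3 other proteins reported to bind amlexanox, 2 changed at the transcript level in cultures without Tat, where 11.4% of all genes changed. These 2 are among the 3 of 44 pathway genes called there (6.82%). Grk5, a kinase of G-protein-coupled receptors, rose by 0.51 on the log2 scale (SE 0.11, FDR 0.0026), from 12.98 to 14.5 CPM in Control to 17.8 to 22.4 CPM in Amlexanox libraries, with no overlap. Fgf1, the growth factor secreted together with S100A13, fell by 1.76 (SE 0.41, FDR 0.0050), from 11.1 to 26.8 to 2.92 to 9.86 CPM. Both calls were lost without Amlexanox replicate 3, and Fgf1 was lost without Control replicate 3 as well. The third, S100a13, did not pass (-0.59, FDR 0.345). Over the 3 backgrounds Grk5 was 0.22 higher (FDR 0.0227) and the log2 fold change of Fgf1 was -0.73 (FDR 0.0462), a call lost in 16 of 28 alternative fits. Against the mean of the other 3 compounds over the 3 backgrounds, 4 of the 44 were higher with amlexanox and 2 lower (13.6%, beside 9.27% of all genes). Besides Grk5 and Sqstm1 these were 1 sensor, 1 IKK gene and 1 interferon regulatory factor, all higher, and 1 kinase partner or modifier, lower. Grk5 was 0.26 higher (SE 0.05, FDR 9.5e-04), a call kept in all 46 alternative fits. Sqstm1, the autophagy receptor p62, differed by -0.34 in that comparison (FDR 8.8e-07), and 4OI had raised it by 0.78 over the same backgrounds.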

How the data were processed

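Polyadenylated RNA was sequenced in pairs with strand kept, in 48 libraries. Per the submitters' processing notes, reads were trimmed (Trim Galore 0.4.5), aligned (STAR 2.7.2, SAMtools 1.5) and counted on genes (Subread 1.5.3). The study's methods name no trimming and another SAMtools version, and state that uniquely mapped reads were counted. The methods name the rat build Rnor_6.0 and the processing notes mRatBN7.2, so no coordinates of the counted genes are given. The deposited signal values are CPM that the authors scaled by TMM, 1 column per library. Whole reads came back for 85.1 to 87.2% of values in a library (within 0.02 of a read), the rest being fractions, so no count model was run. The authors' group means and their columns of fold changes, likelihood ratios, p-values and FDRs were not used.

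Genes with at least 0.5 CPM in 3 libraries (15890) entered 1 limma fit (limma 3.58.1, R 4.3.3) of log2(CPM + 0.5) over all 16 groups, with empirical Bayes trend and Benjamini-Hochberg adjustment over all genes. The fit was tested on simulated data. Alternatives were other pseudocounts (0.1 and 1 CPM), filters and scalings, no trend, the compared groups alone, the replicate number as a block, and each library left out. The main fit does not use the replicate number, which was checked only in pairs of groups compared directly, over all genes tested. Same-numbered libraries deviated together in all 3 pairs for Tat-Amlexanox and Tat (correlations 0.268 to 0.680) and for Tat-Cocaine and Control (0.200 to 0.545). The same held for Tat-Amlexanox and Amlexanox (0.176 to 0.237). In the other pairs of groups checked, at least 1 of the 3 correlations was under 0.1. Replicate 2 held the most Sting1 and the highest sum of microglia markers in every group but Tat-Cocaine. The labels do not say what a number marks.

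The members and gene lists were chosen with earlier results of these data known. Named from the lists were called genes, at most 4 per list and comparison by size, others being said to be chosen after their values were seen, and, for likeness, the 5 genes closest to each kinase.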

Additional observations from a re-analysis of the deposited data

Results flagged for a closer look

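The effect of Tat on Grk5, a kinase reported to bind amlexanox, differed with and without the compound by an interaction test. Grk5 was the 1 of 44 other pathway genes called in that test (2.27%), beside 1.84% of all genes. The Tat effect with amlexanox minus that without was -0.58 on the log2 scale (SE 0.15, FDR 0.0415 by limma). Grk5 was at 13.9 ± 0.791 CPM in Control and 32.1 ± 1.83 CPM in Tat cultures, and at 20.002 ± 2.28 CPM in Amlexanox and 30.5 ± 1.42 CPM in Tat-Amlexanox cultures (SD, n = 3). Without Tat the Amlexanox libraries lay above all Control libraries, and with Tat the libraries with and without amlexanox overlapped. The call was lost in 12 of 22 alternative fits, including those without Tat replicate 1, 2 or 3, Tat-Amlexanox replicate 1, 2 or 3, Control replicate 2 or 3, or Amlexanox replicate 3, with FDRs up to 0.215.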

How the results depend on the processing

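No change called for a member reversed under any alternative. The 3 members that rose with Tat, and the 3 that rose with Tat on top of amlexanox, were called in each of the 16 alternative fits. With the replicate number as a block, the members called went from 0 to 1 for amlexanox in Tat cultures (Ikbke), from 1 to 2 for amlexanox over the 3 backgrounds (Azi2 added, FDR 0.0217), from 0 to 2 for Tazemetostat and from 0 to 1 for Senicapoc. For Tat-Cocaine against Control they went from 3 to 4 (Sting1 added) in that fit, where 3038 of all genes were called. Fitted to the compared groups alone, the members called went from 1 to 0 for amlexanox over the 3 backgrounds and from 3 to 1 for Tat-Cocaine against Control, where Tbk1 (FDR 0.149) and Tank (FDR 0.0637) were lost. The Sting1 call for 4OI was lost in that fit too, without the filter and with quantile normalization. Over the alternatives that left out no single library, the members called for 4OI ran from 2 to 4. With a minimum of 2 CPM, 1 member was called for Tazemetostat. Without 1 library at a time the counts ran from 1 to 4 for 4OI, from 0 to 1 for amlexanox without Tat, for amlexanox over the 3 backgrounds and for Tazemetostat, and from 3 to 4 for Tat-Cocaine, and did not move in the other comparisons. The cause of these shifts was not tested, except that fits to fewer groups have fewer libraries for the error.

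The numbers of all genes called also moved when single libraries were left out. For 4OI they ran from 3019 to 3964 (3624 in all libraries), while the members called ran from 1 to 4. For Tat-Cocaine they ran from 1586 to 2055 (2372). For amlexanox without Tat, 1804 genes became 160 without Amlexanox replicate 3, 417 without Control replicate 3, 1123 without Control replicate 2 and 3003 without Amlexanox replicate 1. Without 1 library at a time the counts ran from 0 to 178 for amlexanox with Tat (133 in all libraries), 5 to 1317 with Tat and cocaine (147), 803 to 1533 over the 3 backgrounds (1270), 0 to 1724 for cocaine (32), 0 to 1603 for the interaction (292), 1830 to 3857 for Tat (3382), 2971 to 6462 for Tat on top of amlexanox (6290), 412 to 3237 for Tazemetostat (1811), 33 to 540 for Senicapoc (184) and 729 to 1887 for amlexanox against the other compounds (1473). The lowest counts for amlexanox with Tat and for Tazemetostat came without replicate 1 of Tat-Amlexanox and replicate 2 of Tat-Tazemetostat. Fitted to the compared groups alone, 0 were called for amlexanox in any single background or for cocaine or the interaction, 543 for amlexanox over the 3 backgrounds, 1252 for Tat, 619 for Tat-Cocaine, 591 for Tazemetostat and 54 for Senicapoc. With the block, 493 were called for amlexanox with Tat, 338 with Tat and cocaine, 1906 over the 3 backgrounds, 95 for cocaine, 693 for the interaction, 3430 for Tazemetostat, 754 for Senicapoc and 2224 for amlexanox against the other compounds. A pseudocount of 0.1 CPM left 91 for amlexanox with Tat and cocaine. Without the filter 131 were called for the interaction and 116 for Senicapoc, and with every library rescaled to the same sum 522 for the interaction and 72 for cocaine. The fewest reads per CPM in a library were 17.2, and the lowest values of Ikbke and Sting1 rested on 57 and 41 reads. Changes in these genes at a few CPM thus rest on fewer reads than those of the other members.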
